A study of Mus musculus with 6 samples.

Results

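The nuclear genes for subunits of respiratory complexes II, III, IV and V and for cytochrome c were examined in mouse gastric corpus epithelium after Yap activation. They were taken by symbol: Sdha to Sdhd, all symbols that begin with Uqcr, with Cox4 to Cox8 or with Atp5, and Cyc1 and Cycs. This gave 47 of the 21526 gene symbols in the table, of which 4 belong to complex II, 9 to complex III, 1 is cytochrome c, 18 belong to complex IV and 15 to complex V. RNA was sequenced in 3 libraries of Yap-activated gastric cancer, from mice of the genotype CluCreERT2;R26rtTA;HA-Yap+, and in 3 libraries of normal stomach (Normal), from WT mice. CreERT2, a tamoxifen-dependent recombinase, is driven by Clu, R26rtTA holds a doxycycline-dependent activator at Rosa26, and the third allele is an HA-tagged Yap. The control mice are labelled WT, so effects of the other alleles and those of Yap cannot be told apart. Mice of both groups were injected with tamoxifen, 2 mg on each of 5 days, and were then given doxycycline in food for the last 14 days. Epithelial cells were released from the dissected corpus with EDTA and not cultured, and poly(A) RNA was sequenced as paired reads. The labels give neither ages nor whether each library is a separate mouse, so the p-values here refer to the variation among 6 libraries and may cover technical variation alone.

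The respiratory chain of the inner mitochondrial membrane passes electrons to oxygen and pumps protons, and ATP synthase, complex V, uses the proton gradient to make ATP. Complex II, succinate dehydrogenase, is also an enzyme of the citric acid cycle and is built only from nuclear-encoded subunits, whereas complexes III, IV and V join nuclear subunits to a few subunits encoded in mitochondrial DNA. Several subunits of complex IV, cytochrome c oxidase, exist as paralogs used in different tissues, such as forms of heart and skeletal muscle, of lung and of testis beside the general form. In the corpus, acid-secreting parietal cells are exceptionally rich in mitochondria.

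The sequences that follow are the promoters of the genes on which the results turn: a pair of Cox7a paralogs and a pair of Cox6b paralogs that moved apart, and the complex II genes that fell least and most. Each is a RefSeq window on GRCm38.p6 from 250 bases before to 50 bases after the annotated start, read on the gene's strand from 5′ to 3′. Their positions are chr7:30183921-30184220 (plus strand) for Cox7a1, chr9:79759804-79760103 (minus) for Cox7a2, chr7:4753045-4753344 (minus) for Cox6b2, chr7:30626065-30626364 (minus) for Cox6b1, chr9:50603800-50604099 (minus) for Sdhd and chr4:140961021-140961320 (plus) for Sdhb. Capitals mark matches to the motifs listed after the sequences.
Cox7a1: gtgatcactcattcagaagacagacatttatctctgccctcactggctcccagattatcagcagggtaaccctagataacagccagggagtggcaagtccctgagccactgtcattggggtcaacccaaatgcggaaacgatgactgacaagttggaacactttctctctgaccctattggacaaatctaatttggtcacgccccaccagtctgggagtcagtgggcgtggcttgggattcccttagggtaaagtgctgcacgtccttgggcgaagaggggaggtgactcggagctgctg
Cox7a2: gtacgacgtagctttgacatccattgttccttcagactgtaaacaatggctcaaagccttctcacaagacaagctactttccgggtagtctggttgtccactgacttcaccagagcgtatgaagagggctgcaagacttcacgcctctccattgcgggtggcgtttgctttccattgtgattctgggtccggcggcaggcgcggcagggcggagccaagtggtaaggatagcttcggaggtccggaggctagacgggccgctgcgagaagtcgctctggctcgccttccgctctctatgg
Cox6b2: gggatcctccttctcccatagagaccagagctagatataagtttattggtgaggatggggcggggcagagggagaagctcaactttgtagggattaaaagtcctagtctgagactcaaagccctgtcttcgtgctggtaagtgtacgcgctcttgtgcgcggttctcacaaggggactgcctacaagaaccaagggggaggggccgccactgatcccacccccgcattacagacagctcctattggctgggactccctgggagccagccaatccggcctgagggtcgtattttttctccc
Cox6b1: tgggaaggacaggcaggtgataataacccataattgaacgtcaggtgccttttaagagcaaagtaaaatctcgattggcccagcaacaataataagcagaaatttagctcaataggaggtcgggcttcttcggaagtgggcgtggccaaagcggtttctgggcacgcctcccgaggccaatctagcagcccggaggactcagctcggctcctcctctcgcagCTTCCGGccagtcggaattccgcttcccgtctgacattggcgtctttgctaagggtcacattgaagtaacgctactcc
Sdhd: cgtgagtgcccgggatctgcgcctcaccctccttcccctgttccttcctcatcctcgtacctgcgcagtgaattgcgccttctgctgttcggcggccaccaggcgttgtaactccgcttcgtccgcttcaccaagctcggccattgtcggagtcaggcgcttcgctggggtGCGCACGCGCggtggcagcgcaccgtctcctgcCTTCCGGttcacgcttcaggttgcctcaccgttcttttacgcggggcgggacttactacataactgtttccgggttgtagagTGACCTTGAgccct
Sdhb: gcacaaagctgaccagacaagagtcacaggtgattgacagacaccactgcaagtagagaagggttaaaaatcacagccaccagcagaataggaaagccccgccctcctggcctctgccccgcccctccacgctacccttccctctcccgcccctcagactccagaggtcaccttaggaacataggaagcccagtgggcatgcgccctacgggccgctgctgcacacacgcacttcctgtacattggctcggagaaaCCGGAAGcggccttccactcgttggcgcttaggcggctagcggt
These windows were searched on both strands for TNAAGGTCA, a binding sequence of estrogen-related receptors, the 10-base binding sequence of NRF1, CCGGAAG of ETS factors, AAGATGGC of YY1, TGACGTCA, the cyclic AMP response element, and GGAATG of TEAD factors. The promoter of Sdhd holds 3 of them, GCGCACGCGC beginning at position -79 from the start, CTTCCGG at -46 and TGACCTTGA at 37. The promoter of Sdhb holds CCGGAAG at 7 and that of Cox6b1 holds CTTCCGG at -28. In the windows of Cox7a1, Cox7a2 and Cox6b2 none of the 6 motifs is spelled out. The promoter table matched 35 of the 47 genes, with 38 windows. The NRF1 sequence was in 26.3% of these windows and in 4.60% of all 32851 windows of this length, and the ETS sequence in 31.6% and 8.86%. The estrogen-related receptor sequence was in 5.26% of the windows and in 1.28% of all, YY1 in 5.26% and 2.75%, the cyclic AMP element in 5.26% and 1.79%, and TEAD in 10.5% and 14.7%. The full set of windows was not matched to these genes by expression or base composition, and these shares carry no test. No motif overlapped another in the 6 windows shown.

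Libraries held 25580734 to 44295619 counts in the Yap-activated group and 36815754 to 48440033 in Normal. Yap1, the targeted gene, had 3085, 1468 and 1651 CPM (TMM-scaled counts, with libraries brought to a common size) in Yap-activated libraries, against 100.3, 104.5 and 106.0 CPM in Normal. Whether the Yap1 reads came from the mouse's own gene, the HA-tagged Yap allele or both was not tested. The 8 parietal cell markers found in the table all fell. Their summed level was 85.8 to 110.5 CPM in Yap-activated libraries and 22090 to 30061 CPM in Normal. Chief cell markers fell likewise, 4 of 4 tested. The 4 surface mucous markers fell too, with a summed level of 1377 to 2113 CPM in Yap-activated libraries and 42996 to 50222 CPM in Normal, and so did the 3 endothelial markers, with 15.3 to 30.4 CPM and 75.6 to 92.7 CPM. In the other direction, 3 of 4 general epithelial markers rose and 1 did not pass, and the immune gene Ptprc rose, with 14.3 to 60.1 CPM in Yap-activated libraries and 9.46 to 10.3 CPM in Normal. Of the 2 mucous neck markers Muc6 fell and Tff2 did not pass. They summed to 1088 to 1544 CPM in Yap-activated libraries and 1906 to 3057 CPM in Normal. Among 4 pericyte markers 1 fell, 1 rose and 2 did not pass. In such bulk samples fewer cells of a type and less RNA per cell cannot be told apart. The part of these cell types in the results that follow was not tested.

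Most of the subunit genes were lower in Yap-activated tissue. Of the 47 genes, 43 passed the filter on low counts, and 39 of these fell, 1 rose and 3 did not pass the threshold (adjusted p under 0.05, edgeR's quasi-likelihood test with Benjamini-Hochberg adjustment over all genes). Of all 14600 genes tested 29.7% fell and 29.8% rose, 59.5% in either direction. The median log2 fold change was -1.34 over the 43 genes and 0.01 over all genes tested, and 31 of the 43 fell by over 2-fold, as did 16.1% of all genes. Groups did not overlap for 41 of the 43 genes, against 67.6% of all genes. The 47 genes in sum held 0.703 ± 0.0528% of counts in Yap-activated libraries and 1.35 ± 0.0380% in Normal (SD, n = 3 each). With library totals alone as the scaling 2299 of all genes fell and 7522 rose, against 4337 and 4345 with TMM, and the median of all genes lay at 0.50. There 33 of the 43 genes fell and 2 rose, and the median of the 43 was -0.84.

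**Figure D1:**
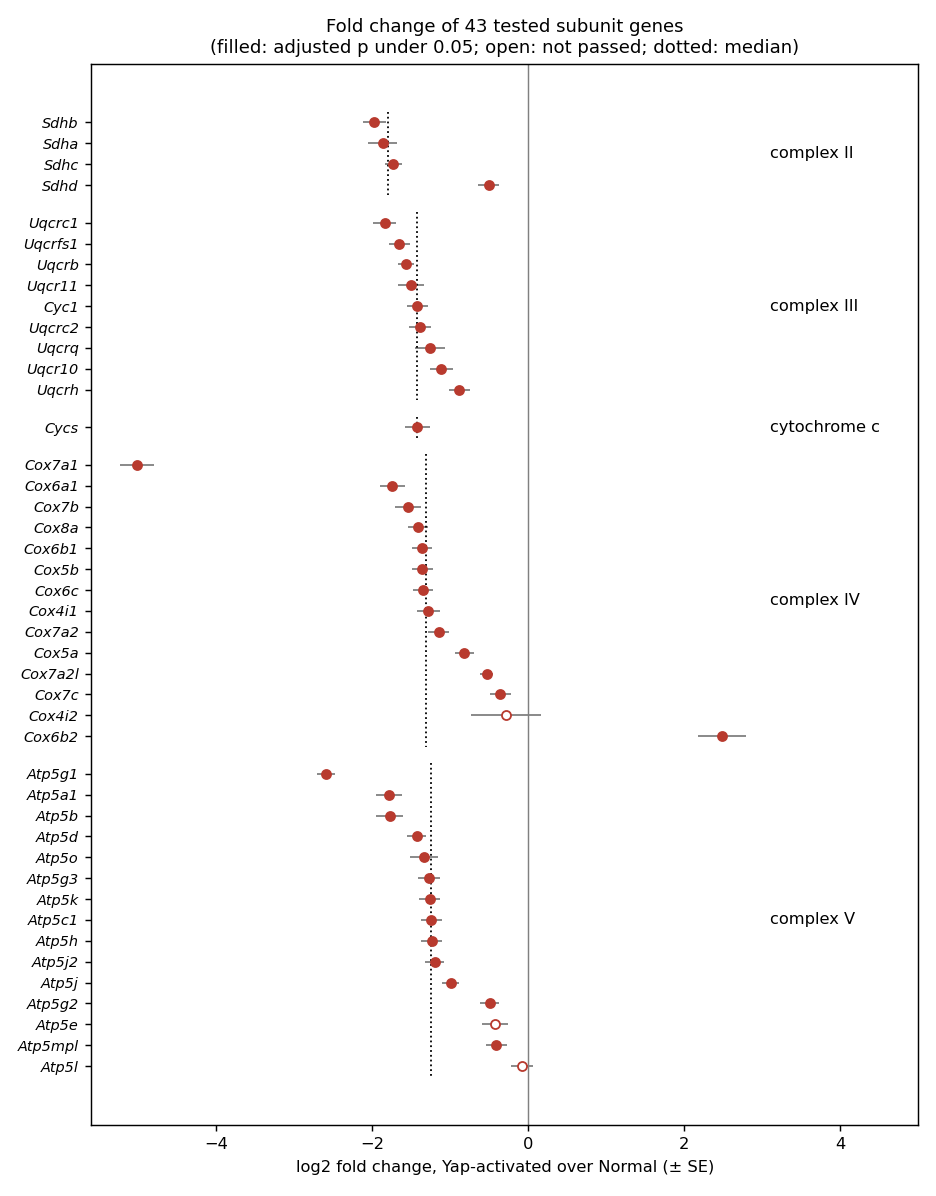
Log2 fold change (Yap-activated over Normal, ± SE, edgeR) of the 43 tested genes by complex, with filled points for genes past the threshold, open points for the others and dotted lines at each complex's median. Most genes lie between -2 and 0, with Cox7a1 at -5.02 and Atp5g1 at -2.59 on the left and Cox6b2 at 2.48 on the right.

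By complex, with no test between them, the median log2 fold change was -1.80 in complex II, -1.42 in complex III, -1.32 in complex IV and -1.25 in complex V. Summed over its genes, complex II reached 473.6 ± 39.6 CPM in Yap-activated libraries and 1304 ± 82.6 CPM in Normal (SD, n = 3 each). For complex V the sums were 2488 ± 206 and 7036 ± 392 CPM. The ratio of the Normal to the Yap-activated sum ran from 2.59 in complex IV to 2.83 in complex V.

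All 4 complex II genes fell, 3 of them by over 3-fold. Sdha, the flavoprotein that oxidizes succinate, had 112.0, 140.7 and 161.7 CPM in Yap-activated libraries, against 417.5, 530.7 and 565.0 CPM in Normal, a log2 fold change of -1.87 (SE 0.18, adjusted p = 8.29e-05, edgeR). Sdhb, the iron-sulfur subunit, had 78.3, 72.8 and 56.6 CPM against 285.0, 251.5 and 279.5 CPM in Normal, and at -1.97 (SE 0.15) it fell most in the complex. Their means were 3.65 and 3.93 times as high in Normal, and no library of one group reached the range of the other. Sdhc, a membrane anchor that helps to bind the heme, had a log2 fold change of -1.73 (SE 0.11).

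Sdhd, the other membrane anchor, stood apart from its partners. It had 173.1, 223.3 and 167.4 CPM in Yap-activated libraries, against 279.0, 257.1 and 266.6 CPM in Normal, a log2 fold change of -0.51 (SE 0.14, adjusted p = 0.0133, edgeR). Leaving out Yap-activated replicate 3 ended the call (-0.43, adjusted p = 0.0505, edgeR), as did library totals alone (-0.01, adjusted p = 0.931, edgeR). Per library, the log2 ratio of Sdhd to Sdhb reads was 1.15, 1.62 and 1.56 in Yap-activated tissue and -0.03, 0.03 and -0.07 in Normal. The ratio of Sdhd to Sdhc was 1.25 ± 0.176 and 0.0428 ± 0.124, and that of Sdhd to Sdha 0.448 ± 0.345 and -0.903 ± 0.280 (log2, Yap-activated and Normal, SD, n = 3 each). These ratios do not depend on scaling, and they were picked after the values had been seen, so they carry no test. Ratios among the other 3 genes differed less. The log2 ratio of Sdhc to Sdhb was 0.189 ± 0.172 in Yap-activated libraries and -0.0651 ± 0.115 in Normal, a difference of 0.25 with groups that do not overlap. The log2 ratio of Sdha to Sdhb was 0.994 ± 0.499 in Yap-activated libraries and 0.881 ± 0.288 in Normal, a difference of 0.11 that lies within the spread. Sdhd also had the highest level per length in the complex, 152.7 ± 25.0 RPKM (CPM per kilobase of exons) in Yap-activated and 217.4 ± 8.93 RPKM in Normal libraries.

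**Figure D2:**
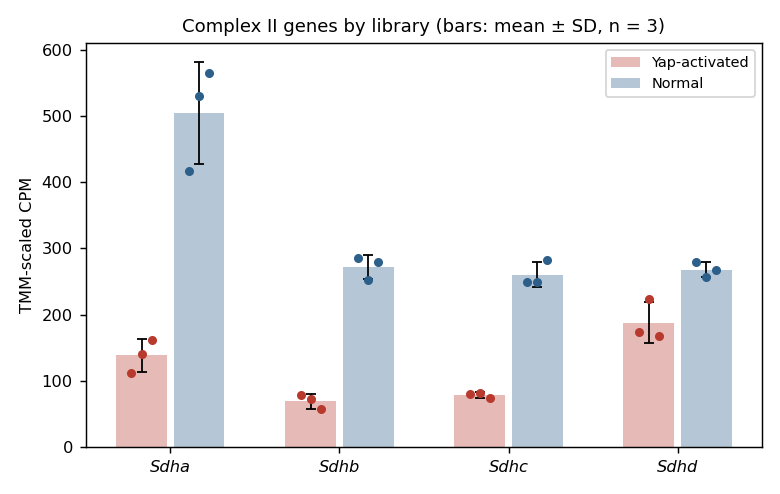
TMM-scaled CPM of the 4 complex II genes in each library (points), with bars for the mean and error bars for the SD of 3 libraries, Yap-activated left and Normal right. Sdha, Sdhb and Sdhc stand far lower in Yap-activated libraries, and Sdhd stands at 167.4 to 223.3 CPM there and at 257.1 to 279.0 CPM in Normal.

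In complex III all 9 genes fell. Uqcrc1, a core subunit, fell most at -1.84 log2 (SE 0.14, adjusted p = 2.78e-05, edgeR), with 150.6, 185.7 and 146.1 CPM in Yap-activated libraries, against 544.0, 555.7 and 629.9 CPM in Normal. Uqcrh, the hinge protein beside cytochrome c1, fell least at -0.89 (SE 0.14), with 213.4, 222.8 and 194.8 CPM against 451.1, 355.9 and 358.5 CPM in Normal. Between them lay the catalytic subunits, the Rieske iron-sulfur protein Uqcrfs1 at -1.65 and cytochrome c1, Cyc1, at -1.42. Uqcr10, a small subunit, had the highest level per length, 174.0 ± 15.7 RPKM in Yap-activated and 377.3 ± 63.3 RPKM in Normal libraries (SD, n = 3 each), and a log2 fold change of -1.12.

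Cycs, the somatic cytochrome c that carries electrons from complex III to complex IV and takes part in apoptosis, fell by 1.42 on the log2 scale (SE 0.16, adjusted p = 1.85e-04, edgeR). It had 44.9, 38.5 and 28.8 CPM in Yap-activated libraries, against 101.6, 93.5 and 105.1 CPM in Normal. Of the 50-base sequences in Cycs transcripts 26.1% also occur in other annotated genes, 76 in number, and how such reads were counted was not tested.

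Of the 18 complex IV genes 14 were tested, and 12 fell, Cox6b2 rose and Cox4i2 did not pass. Cox6a1, the general form of subunit VIa, had the highest level per length of all 47 genes, 345.9 ± 58.5 RPKM in Yap-activated and 1159 ± 101 RPKM in Normal libraries (SD, n = 3 each), and a log2 fold change of -1.74. The general forms Cox7b, Cox8a, Cox6b1, Cox4i1 and Cox7a2 had log2 fold changes of -1.54, -1.42, -1.36, -1.28 and -1.15. Among subunits with a single form Cox5b was at -1.36, Cox6c at -1.35 and Cox5a at -0.82. Cox7a2l, a Cox7a-related protein known for joining complexes III and IV into supercomplexes, fell less, at -0.53 (SE 0.08). It had 45.6, 46.8 and 49.2 CPM in Yap-activated libraries, against 68.1, 68.2 and 68.9 CPM in Normal. With library totals alone the calls of Cox7a2l (-0.04) and Cox5a (-0.33) were lost.

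Cox7c was the weakest call of the complex. It had 71.9, 71.3 and 69.3 CPM in Yap-activated libraries, against 106.3, 92.6 and 74.0 CPM in Normal, a log2 fold change of -0.36 (SE 0.14, adjusted p = 0.0487, edgeR). The lowest Normal library lies close to the highest Yap-activated one. The call was lost in 12 of 15 alternatives, among them each library left out except Normal replicate 3, where adjusted p was 0.0836 to 0.145, and with library totals alone the value was 0.14.

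Cox7a1, the form of subunit VIIa known from heart, skeletal muscle and brown fat, fell most of the 43 genes. It had 2.54, 1.74 and 2.03 CPM in Yap-activated libraries, against 82.9, 56.0 and 64.1 CPM in Normal, a log2 fold change of -5.02 (SE 0.21, adjusted p = 2.15e-06, edgeR). The mean was 32.2 times as high in Normal, and the groups lie far apart. Its general paralog Cox7a2 had 128.0, 137.3 and 143.6 CPM in Yap-activated libraries, against 351.9, 270.1 and 283.7 CPM in Normal. The log2 ratio of Cox7a1 to Cox7a2 reads was -5.65, -6.29 and -6.14 in Yap-activated libraries and -2.08, -2.27 and -2.15 in Normal. The difference of -3.86 is larger than the spread in either group (exact permutation test, 2-sided, p = 0.1 and 0.125 after adjustment over 5 pairs; 3 libraries against 3 allow no smaller p than 0.1). Per length, Cox7a1 made up 2.67 ± 0.632% of the pair in Yap-activated libraries and 28.2 ± 1.32% in Normal (SD, n = 3 each). On GRCm38, Cox7a1 spans chr7:30184144-30186078 (plus) and Cox7a2 spans chr9:79755361-79759878 (minus), and neither shares a 50-base sequence or exon with another annotated gene.

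Other genes of muscle and brown fat were read beside Cox7a1. Its fellow muscle forms Cox6a2 and Cox8b had 0 counts in all libraries, except for 1 count of Cox8b in Yap-activated replicate 1, where 3 counts per library would be 0.0558 to 0.102 CPM in Yap-activated and 0.0713 to 0.0948 CPM in Normal libraries. Of 9 striated muscle genes Myl2 was at 0 in Normal and Ckm, muscle creatine kinase, averaged 0.168 ± 0.116 CPM in Yap-activated and 0.290 ± 0.118 CPM in Normal libraries. Myh7, Myh6 and Actc1 fell, with Myh7 at 0.162 ± 0.116 CPM in Yap-activated and 20.1 ± 2.62 CPM in Normal libraries (SD, n = 3 each). Mb had 0, 0 and 1 counts in Yap-activated libraries and 10, 13 and 18 in Normal, and it was not tested. In the other direction, Acta1 and Tnnt2 rose, and Tnnt3 did not pass. The summed level of the 9 genes was 16.2 to 17.9 CPM in Yap-activated libraries and 26.1 to 31.9 CPM in Normal. Most of this sum was Tnnt2 in Yap-activated libraries and Myh7 in Normal. Ucp1, which defines brown fat, averaged 0.0836 CPM in Yap-activated and 0.0845 CPM in Normal libraries, and Plin1 and Adipoq reached at most 0.0339 and 0.203 CPM in any library. Of the other brown fat genes Cidea rose and Fabp4 fell. The 5 genes summed to 12.5 to 27.9 CPM in Yap-activated and 29.2 to 62.2 CPM in Normal libraries. Most of this sum was Fabp4, which averaged 14.0 ± 6.79 CPM in Yap-activated and 39.9 ± 19.0 CPM in Normal libraries. Of 6 smooth muscle genes 3 fell and 3 did not pass, with a summed level of 105.8 to 246.4 CPM in Yap-activated and 205.4 to 324.5 CPM in Normal libraries. The part of these tissues in the level of Cox7a1 was not tested.

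Cox6b2, the testis form of subunit VIb, was the only one of the 43 genes that rose. It had 10.6, 6.77 and 10.3 CPM in Yap-activated libraries, against 2.30, 1.28 and 1.39 CPM in Normal, a log2 fold change of 2.48 (SE 0.31, adjusted p = 3.00e-04, edgeR). These values rest on 284 to 555 reads per Yap-activated library and 44 to 79 per Normal library, and the call held in all 15 alternatives. Its general paralog Cox6b1 moved the other way, with 223.1, 237.3 and 221.3 CPM in Yap-activated libraries, against 667.6, 532.8 and 553.6 CPM in Normal. The log2 ratio of Cox6b2 to Cox6b1 reads was -4.39, -5.13 and -4.42 in Yap-activated libraries and -8.17, -8.68 and -8.62 in Normal, a difference of 3.85 (2-sided exact permutation p = 0.1, adjusted over 5 pairs 0.125). Even so, Cox6b2 made up only 2.55 ± 0.656% of the pair per length in Yap-activated libraries, and 0.178 ± 0.0364% in Normal (SD, n = 3 each). On GRCm38 the gene spans chr7:4751792-4753094 (minus) and shares no 50-base sequence or exon with another annotated gene. The other testis forms were not seen at a testable level: Cox8c had 0 counts in all libraries and Cox7b2 had 3 counts in Normal replicate 3 alone.

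Cox4i2, the lung form of subunit IV that low oxygen is known to raise, had the lowest level per length of the 43 genes. It had 0.915, 0.406 and 0.688 CPM in Yap-activated libraries, against 1.22, 0.546 and 0.664 CPM in Normal, from 17 to 42 reads per library, and its log2 fold change of -0.28 (SE 0.45, adjusted p = 0.611, edgeR) did not pass. The sign turned with library totals alone (0.22) and without Normal replicate 1 (0.13). Cox4i1, the general form, had 324.3, 327.4 and 311.2 CPM in Yap-activated libraries, against 923.5, 700.7 and 719.2 CPM in Normal. The log2 ratio of Cox4i2 to Cox4i1 reads differed by 1.01, with overlapping groups (2-sided exact permutation p = 0.2).

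**Figure D3:**
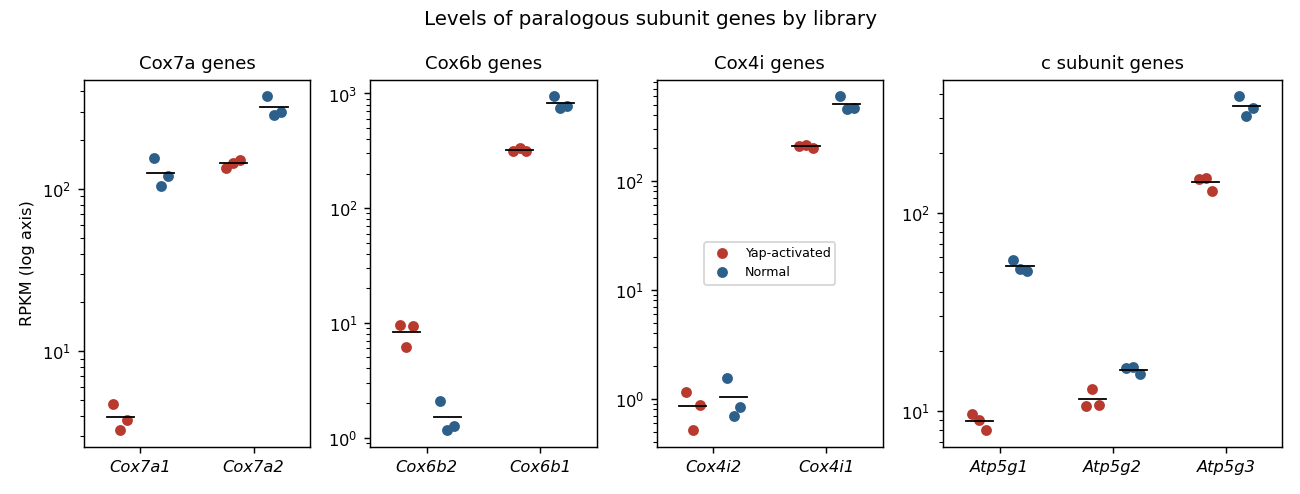
RPKM on a log axis of paralogous subunit genes in each library (points, Yap-activated left and Normal right of each gene), with lines at group means. Cox7a1 averages 3.93 RPKM in Yap-activated and 126.5 RPKM in Normal libraries, and Cox6b2 is higher in Yap-activated libraries, while each general paralog is lower in Yap-activated libraries.

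Of the 15 complex V genes 13 fell, and Atp5e and Atp5l did not pass. Atp5b, the catalytic beta subunit of the head, had the highest level per length of the complex, 163.6 ± 20.9 RPKM in Yap-activated and 560.5 ± 61.8 RPKM in Normal libraries (SD, n = 3 each), and a log2 fold change of -1.78. The alpha subunit Atp5a1 was also at -1.78. In the central stalk the delta subunit Atp5d was at -1.43 and the gamma subunit Atp5c1 at -1.25. Genes of the outer stalk (Atp5h, Atp5j) and of the membrane part (Atp5j2, Atp5k) had log2 fold changes between -1.26 and -0.998. Atp5o, the subunit that ties the stalk to the head, was at -1.34 but at only 2.84 ± 0.374 RPKM in Yap-activated and 7.17 ± 0.912 RPKM in Normal libraries. The annotation holds 2 loci named Atp5o that overlap, and 41.1% of its 50-base sequences occur in other genes, and the effect on its level was not tested.

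The 3 genes for the c subunit, which forms the rotating ring in the membrane, fell to different degrees. Their mature proteins are the same and their import sequences differ. Atp5g1 had 47.6, 44.3 and 39.2 CPM in Yap-activated libraries, against 284.6, 257.2 and 249.9 CPM in Normal, a log2 fold change of -2.59 (SE 0.12, adjusted p = 2.85e-06, edgeR). Atp5g3, the most abundant, had 323.1, 328.8 and 280.1 CPM in Yap-activated libraries, against 844.8, 674.6 and 734.9 CPM in Normal, at -1.27 (SE 0.14). For Atp5g2 the values were 17.8, 21.7 and 17.9 CPM in Yap-activated libraries, against 27.6, 27.8 and 25.6 CPM in Normal, at -0.50 (SE 0.12, adjusted p = 0.00821, edgeR). With library totals alone Atp5g2 was at 0.00 and did not pass.

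Atp5g1 thus had a smaller share of the c subunit genes in Yap-activated libraries, and both Atp5g3 and Atp5g2 had a larger one. The log2 ratio of Atp5g1 to Atp5g3 reads was -2.83 ± 0.0640 in Yap-activated libraries and -1.51 ± 0.0996 in Normal (SD, n = 3 each), a difference of -1.32. The ratio of Atp5g2 to Atp5g3 was -4.02 ± 0.140 in Yap-activated libraries and -4.79 ± 0.172 in Normal, a difference of 0.77. In both pairs the groups do not overlap (2-sided exact permutation p = 0.1 each, adjusted over 5 pairs 0.125). Per length, Atp5g1 made up 5.47 ± 0.265% of the 3 genes in Yap-activated libraries and 13.0 ± 0.730% in Normal, Atp5g2 made up 7.03 ± 0.635% in Yap-activated libraries and 3.92 ± 0.420% in Normal, and Atp5g3 made up 87.5 ± 0.382% in Yap-activated libraries and 83.1 ± 1.14% in Normal. Shares of reads, which use no length, were 11.7 ± 0.514% and 25.4 ± 1.24% for Atp5g1 (Yap-activated and Normal, SD, n = 3 each). For Atp5g2 they were 5.13 ± 0.485% and 2.61 ± 0.261%. Which of Atp5g1 and Atp5g2 was higher in Yap-activated libraries thus depends on the lengths used. Of the 50-base sequences of Atp5g2 38.3% occur in other genes, as do 11.1% of those of Atp5g1 and none of those of Atp5g3.

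**Figure D4:**
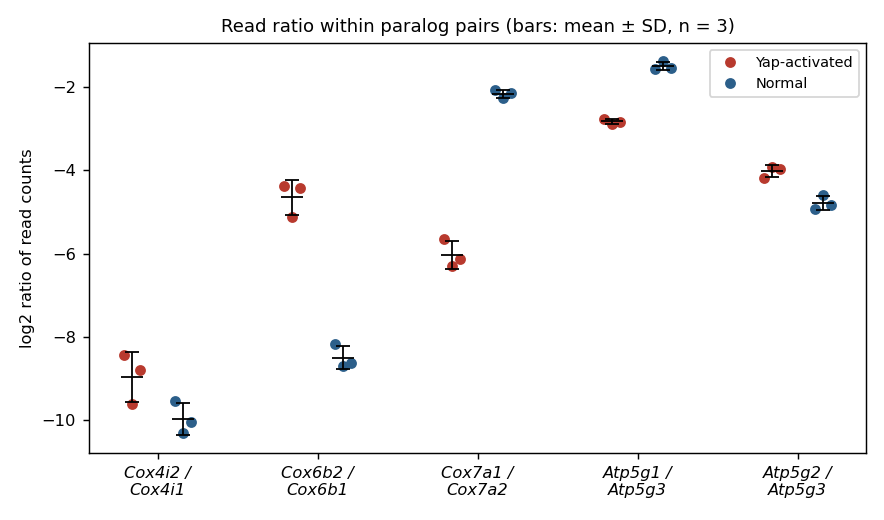
Log2 ratio of read counts in 5 pairs of paralogs, one point per library, with the mean and SD of 3 libraries, Yap-activated left and Normal right. The groups are apart in 4 pairs, lower in Yap-activated libraries for Cox7a1 over Cox7a2 and Atp5g1 over Atp5g3 and higher for Cox6b2 over Cox6b1 and Atp5g2 over Atp5g3, and they overlap for Cox4i2 over Cox4i1.

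For 3 complex V genes the groups lay close together. Atp5l, a membrane subunit that holds the dimer of the enzyme together, had 18.2, 14.3 and 15.8 CPM in Yap-activated libraries, against 18.3, 15.4 and 17.5 CPM in Normal, a log2 fold change of -0.08 (SE 0.14, adjusted p = 0.629, edgeR). With library totals alone it was at 0.41 and passed (adjusted p = 0.0246). Its level per length, 2.50 ± 0.300 RPKM in Yap-activated and 2.64 ± 0.233 RPKM in Normal libraries, was the lowest in the complex. That rank rests on an exon length of 6443 bases. By CPM Atp5o was lower, with means of 5.60 in Yap-activated and 14.1 in Normal libraries. Of the 50-base sequences of Atp5l 9.99% occur in other genes, 642 in number. Atp5e, the epsilon subunit, had 145.9, 139.5 and 132.9 CPM in Yap-activated libraries, against 236.1, 171.7 and 153.3 CPM in Normal. Its groups do not overlap, but at -0.42 (SE 0.17, adjusted p = 0.056, edgeR) it did not pass, while it did with DESeq2 (adjusted p = 0.0419) and without Normal replicate 3 (0.0281). Atp5mpl, a small proteolipid of the complex, fell by 0.41 (SE 0.14, adjusted p = 0.0342, edgeR), a call lost without Normal replicate 1 (0.0807), without any one Yap-activated replicate (0.0554 to 0.0893) and with upper-quartile scaling (0.0673). With library totals alone Atp5e was at 0.077 and Atp5mpl at 0.092.

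How far reads can be assigned differs between the genes. Of the 43 tested genes 23 have at least 1% of their 50-base transcript sequences in other annotated genes, and exons of 11 overlap another gene. Here and above, matches and overlaps on either strand were counted, so some of them would not be ambiguous where strands were told apart in counting. Among the 20 genes with neither, 17 fell, Cox6b2 rose and Atp5e and Cox4i2 did not pass, with a median log2 fold change of -1.32. This split was made after the data had been seen.

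Genes that build or regulate complexes II to V were read from a separate list. Of 34 assembly and regulatory factors 32 were tested, 19 fell and 13 did not pass, with a median log2 fold change of -0.51, where 29.7% of all genes tested fell. All 4 factors of complex V fell, among them Atpif1, an inhibitor of ATP synthase, at -0.95, Tmem70 at -0.65 and Atpaf2 at -0.47. For complex IV 11 of 18 tested factors fell, with Cox10, which makes heme O, the precursor of heme A, lowest at -1.74 (SE 0.17, adjusted p = 8.53e-05, edgeR), and Lrpprc, a stabilizer of mitochondrial mRNA, at -1.20. Cox14 was at -0.01 and Cox20 at 0.29, and neither passed. For complex III 3 of 6 factors fell, Uqcc1 at -1.48, Uqcc3 at -1.31 and Bcs1l at -1.10, whereas Uqcc2 was at 0.11. For complex II 1 of 4 fell, Sdhaf3 at -0.64. With library totals alone 10 of the 32 fell, as did 15.7% of all genes. Ndufa4, now known as a subunit of complex IV, fell by 0.97 (SE 0.17, adjusted p = 0.00196, edgeR).

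The subunits encoded in mitochondrial DNA were read beside the nuclear ones. mt-Co1, the catalytic subunit of complex IV, had 47855, 27365 and 33836 CPM in Yap-activated libraries, against 144902, 79438 and 72977 CPM in Normal, a log2 fold change of -1.45 (SE 0.39, adjusted p = 0.0134, edgeR). mt-Cytb, cytochrome b of complex III, was at -1.40 (SE 0.39, adjusted p = 0.0144, edgeR). Replicate 1 stood highest in both groups. Of the 6 genes of complexes III to V 5 were tested and all 5 fell, but 2 fell without Normal replicate 1 or Yap-activated replicate 3, 3 without Normal or Yap-activated replicate 2, and 3 with library totals alone. mt-Co2, mt-Co3 and mt-Atp6 had 5 to 14 reads per Yap-activated library and 10 to 34 per Normal library, and mt-Atp8 had 0 to 1 and 1 to 3. Against these, mt-Co1 had 1147164 to 1819325 reads per Yap-activated library and 2308285 to 4975245 per Normal library. How the reads of these genes were counted was not tested.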

How the data were processed

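The deposited table, made by the authors, gives unnormalized counts of reads per gene (whole numbers) for all 6 libraries. The submitters' processing notes name STAR 2.4.2a and DESeq2, and GRCm38 or mm10 as the build. Which program counted reads, with which strand setting and which rule for reads matching several places, is not stated in the labels or notes. The library kit is a stranded one, per the labels' protocols. The fit used edgeR 4.0.16 under R 4.3.3. filterByExpr (minimum count 10) left 14600 genes, and TMM set the scale. Genes were compared with the robust quasi-likelihood F-test of edgeR, Benjamini-Hochberg adjusted over those 14600 genes, at a threshold of 0.05, and SE was taken as the absolute log2 fold change over the root of F. RPKM are the TMM-scaled CPM per kilobase of exons of all GENCODE M21 transcripts (GRCm38). Ranks of genes per length depend on this exon length and can differ from ranks by CPM. For paralogs, log2 ratios were taken of counts plus 0.5, tested by a 2-sided exact permutation test. The fit was tested on simulated data. The genes and lists were chosen with earlier results of these data known. Named in full are paralogs, each complex's extremes and highest RPKM, and genes that did not fall. As alternatives, the scaling (DESeq2 size factors, totals, upper quartile, no mitochondrially encoded genes), the filter and the tool (DESeq2 1.42.0, limma 3.58.1 with voom) were changed, a replicate block was added, and each library was left out once.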

Additional observations from a re-analysis of the deposited data

How the results depend on the processing

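The count of genes that fell was 33 to 40 of the tested subunit genes over the 15 alternatives, against 39, with 36 to 40 when a single library was left out, and was 17 of 20 among genes with no overlap and under 1% shared 50-base sequences, a restriction chosen after seeing the data that tests fewer genes. The count that rose was 1 in every alternative but library totals alone, where it was 2. The median log2 fold change was -0.84 with library totals alone and -1.40 to -1.24 without single libraries. Library totals alone also turned the sign of Cox4i2 (0.22), Cox7c (0.14), Atp5e (0.077), Atp5l (0.41) and Atp5mpl (0.092), as leaving out Normal replicate 1 did for Cox4i2, which lay between -0.54 and 0.13 without single libraries. Scaling by totals leaves out the TMM factors, which were 0.802 to 0.869 in Normal and 1.15 to 1.21 in Yap-activated libraries. The median log2 fold change of all genes was then 0.50 and not 0.01, and which scale is right was not tested. No call changed for the other genes, except that Sdhd, Cox5a, Cox7a2l and Atp5g2 lost theirs with library totals alone and Sdhd without Yap-activated replicate 3. The ratios of paralogs kept their direction with 5 reads added and without single libraries, where differences were 0.75 to 1.34 for Cox4i2/Cox4i1, 3.72 to 4.09 for Cox6b2/Cox6b1, -4.05 to -3.73 for Cox7a1/Cox7a2, -1.36 to -1.27 for Atp5g1/Atp5g3 and 0.70 to 0.87 for Atp5g2/Atp5g3. Same-numbered libraries did not deviate together over all genes (r from 0.00 to 0.07, against -0.11 to 0.07 for differently numbered ones). Whether they share a batch that affects some genes was not tested. With a replicate block 40 of the 43 genes fell and the median was -1.34, Atp5e being the call gained. Its exact sign-flip test of the paralog ratios gave p = 0.25 for each pair, the smallest that 3 pairs can give. Cox4i2 rests on 17 to 42 reads per library, and its SE of 0.45 was the largest of the 43 genes.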
